A study of Mus musculus with 23 samples.

Results

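The 39 Hox genes of the mouse, in the clusters A, B, C and D, were followed across 23 bulk RNA-seq libraries of melanomas and their metastases. They were chosen by name, as every symbol made of Hox, a cluster letter and a paralog number. Of the 37620 gene identifiers counted, 38 carried such a symbol, 11 in cluster A, 10 in B, 9 in C and 8 in D. Hoxd4, the 39th, was not analysed here. HPN tumours carried Nme1+/- / Nme2+/- and HP tumours Nme1wt / Nme2wt, alleles of the genes for nucleoside diphosphate kinases A and B. The HPN libraries were 2 lung metastases (3 and 4), 7 lymph node metastases and 7 primary melanomas (1 to 7), and 7 HP primary melanomas (1, 3, 4, 5, 6, 7 and 9) carried wild type Nme1 and Nme2. Nodes 3, 4 and 8 were labelled brachial, node 7b inguinal, nodes 6 and 7a cervical, and node 5 only as lymph. Numbers are those of the sample titles. A shared number was read as a shared animal, which the labels do not state, nor do they give ages, the skin site of a primary or the agents that started the tumours.

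Hox genes encode homeodomain transcription factors that give cells of the embryo their position along the head-to-tail axis, and later along the limbs. Each cluster is read in order: genes of low paralog number (anterior) are expressed from the neck down, and genes of high number (posterior) only towards the tail and the ends of the limbs. Adult fibroblasts keep much of the code of their body site, so the Hox genes of a bulk tumour can come from the tumour cells or from the skin, node or lung tissue around them. In such samples fewer cells of a type and less RNA per cell cannot be told apart.

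The libraries held 18870759 to 89481553 counts in genes. Values are CPM, counts brought to a common library size with trimmed mean of M-values (TMM) factors. A count of 0 allows up to 3 counts, or 0.0324 to 0.138 CPM depending on the library, for counting error only. Nme1 averaged 10.6 ± 2.78 CPM in HPN primaries and 16.8 ± 8.06 CPM in HP primaries, and Nme2 averaged 0.238 ± 0.127 CPM in HPN primaries and 0.480 ± 0.201 CPM in HP primaries (SD, n = 7 each). The differences, log2 -0.69 ± 0.27 for Nme1 and -1.02 ± 0.38 for Nme2 (SE), had an adjusted p of 0.951 each in edgeR's quasi-likelihood test with Benjamini-Hochberg adjustment. Summed melanocyte markers were at 5908 to 74228 CPM in all libraries. Summed B cell markers were at 252 to 2540 CPM in nodes and at 5.35 to 21.9 CPM in HPN primaries. Summed lung epithelium markers were at 4.86 CPM in lung 3, within the HPN primaries' 4.55 to 44.0 CPM, with surfactant genes Sftpb and Sftpd at 0 counts, and at 7927 CPM in lung 4. In that respect lung 3 went against its tissue label, and edgeR's lung calls are given with and without it. The labels do not say that libraries came from separate animals, so p-values measure only the spread between these samples.

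Hox expression was low and uneven. Of the 38 genes, 36 had at least 1 count, 30 reached 1 CPM in at least 1 library and 0 reached it in all 23. Hoxd12 and Hoxd13, the most posterior genes of cluster D, had 0 counts in every library. The highest value was 27.3 CPM, for Hoxc13 in HP primary 6. Summed over the 38 genes, lungs 3 and 4 had 16.1 and 29.8 CPM. The nodes had 23.3 to 82.0 CPM with a median of 39.7, the HPN primaries 5.29 to 152 CPM with a median of 28.4, and the HP primaries 5.62 to 108 CPM with a median of 37.0. All groups overlapped, and the HPN primaries alone spanned the whole range.

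**Figure D1:**
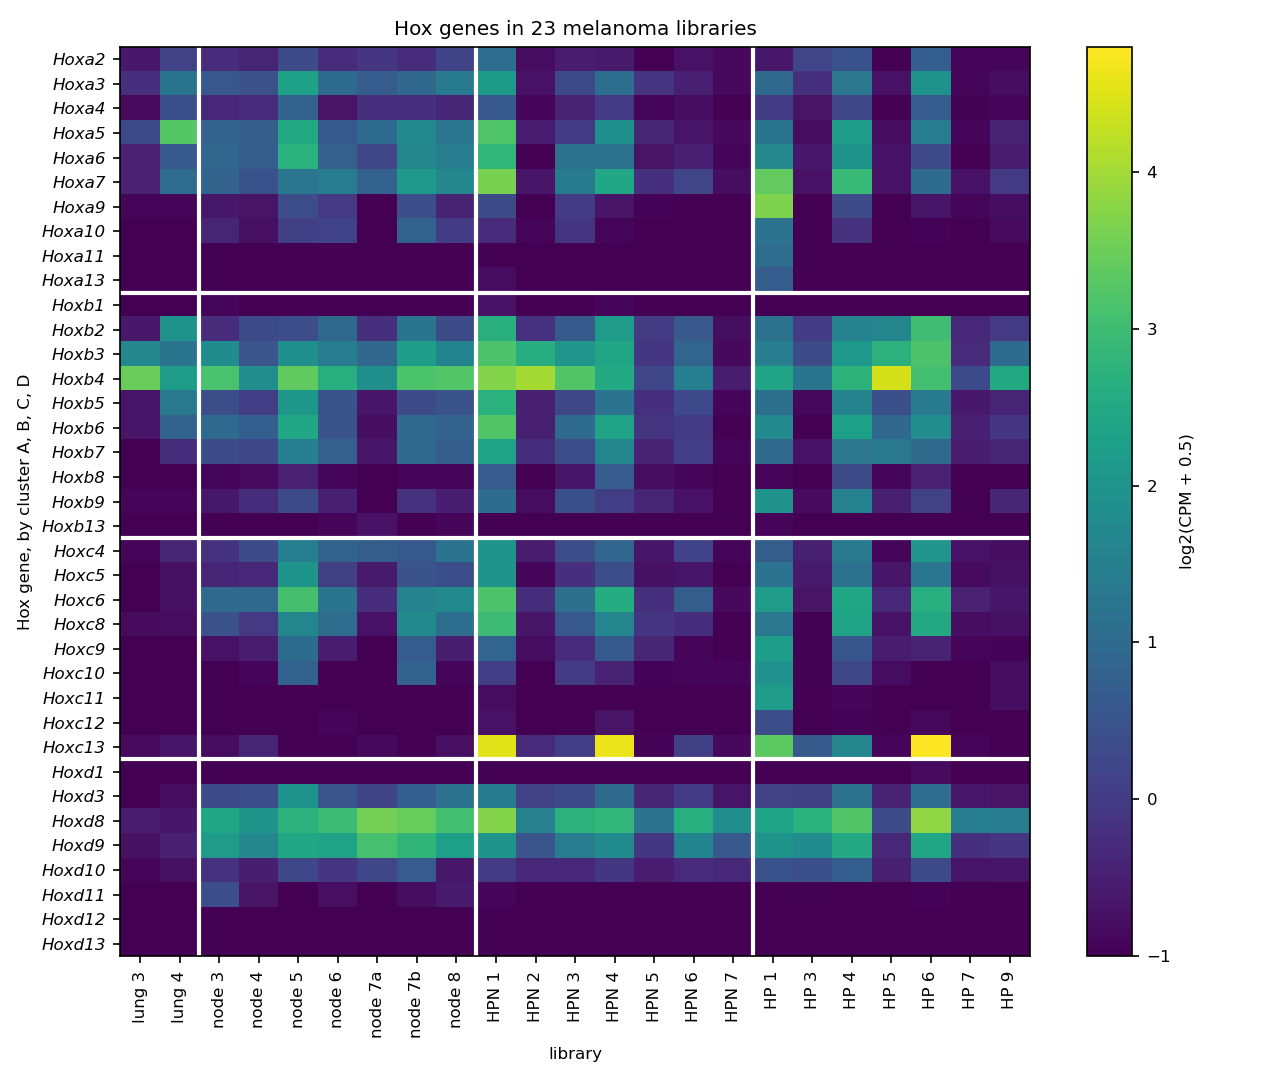
Level of Hox genes (rows, by cluster and paralog number) in the 23 libraries (columns, white lines between lung metastases, node metastases, HPN primaries and HP primaries), as log2(CPM + 0.5). Clusters C and D are dark in both lungs, Hoxa9 to Hoxa13 and Hoxc10 to Hoxc12 are bright in HP primary 1, and Hoxc13 peaks in HP primary 6 at 27.3 CPM.

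The clearest pattern was the near absence of cluster D from the lung metastases. Summed over cluster D, lungs 3 and 4 had 0.322 and 0.517 CPM, against 7.35 to 20.9 CPM in nodes and 2.73 to 18.9 CPM in HPN primaries, so the lungs overlapped with neither group. Cluster C was also low, at 0.161 and 0.689 CPM in lungs 3 and 4, against 1.81 to 19.3 CPM in nodes, but its HPN primaries reached down to 0.152 CPM, in primary 7. Cluster B was at 13.8 and 13.1 CPM in lungs 3 and 4, inside the nodes' 5.40 to 25.9 CPM and the HPN primaries' 0.354 to 49.3 CPM. Cluster A was at 1.83 CPM in lung 3 and 15.5 CPM in lung 4.

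The 3 genes of cluster D called between lungs and nodes were Hoxd3, Hoxd8 and Hoxd9. Hoxd8 and Hoxd9 are neighbouring genes of the middle of the cluster with roles in the trunk, forelimb and gut, and Hoxd3 is an anterior gene of the neck skeleton. Their promoters are shown because these genes were low together in the same libraries. Each is the stretch of 250 bases before the start that RefSeq gives for the gene (build GRCm38.p6, plus strand), and capitals mark the one CCAAT or GC box match in it.
Hoxd3, chr2:74711743-74711992: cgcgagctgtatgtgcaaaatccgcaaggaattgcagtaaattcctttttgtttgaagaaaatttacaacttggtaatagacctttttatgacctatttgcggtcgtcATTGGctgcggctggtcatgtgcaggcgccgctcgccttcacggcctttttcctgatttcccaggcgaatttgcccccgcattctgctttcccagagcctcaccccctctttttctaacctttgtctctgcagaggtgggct
Hoxd8, chr2:74704365-74704614: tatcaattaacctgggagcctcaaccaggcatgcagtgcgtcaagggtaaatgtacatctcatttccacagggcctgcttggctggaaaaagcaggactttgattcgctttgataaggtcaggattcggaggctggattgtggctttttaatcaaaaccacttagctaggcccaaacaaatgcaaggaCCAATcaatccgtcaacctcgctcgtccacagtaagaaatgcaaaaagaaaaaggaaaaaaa
Hoxd9, chr2:74697513-74697762: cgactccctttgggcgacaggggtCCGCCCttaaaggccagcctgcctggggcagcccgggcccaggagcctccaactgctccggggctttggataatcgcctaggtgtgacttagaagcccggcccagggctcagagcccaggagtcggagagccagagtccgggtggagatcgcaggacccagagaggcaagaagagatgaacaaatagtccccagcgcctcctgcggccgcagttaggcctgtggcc
These stretches held 12 (Hoxd3), 6 (Hoxd8) and 13 (Hoxd9) CpG dinucleotides, and their GC contents were 49.2%, 44.4% and 65.2% in the same order. CCAAT, searched on both strands, matched once in the Hoxd3 and the Hoxd8 stretch, and GGGCGG matched once in that of Hoxd9. Of 32536 promoters of this length, 33.8% held CCAAT and 33.0% held GGGCGG, so these matches are common. TTTATNG, a posterior Hox motif, and TGATNNAT, a Pbx-Hox motif, matched in none of the 3, and were held by 9.74% and 7.66% of all promoters. The table had a promoter for 21 of the 38 genes.

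Hoxd8 was at 0.193 and 0.138 CPM in lungs 3 and 4. It was at 3.53 to 11.5 CPM in nodes, with a median of 7.40. It was at 1.82 to 12.7 CPM in HPN primaries, with a median of 5.73. Both lungs lay below every node and every HPN primary, and also below the lowest HP primary, which had 0.772 CPM. The log2 difference was -5.32 ± 0.91 (SE) against nodes, with an adjusted p of 0.0167 in edgeR's quasi-likelihood test. Against HPN primaries it was -5.05 ± 0.90, with an adjusted p of 0.0313 in the same test. Summed over libraries, 10 counts in lungs stood against 1729 in nodes, a ratio of 0.0218 in CPM (95% interval 0.0105 to 0.0403, counting error only), and without lung 3 the ratio was 0.0181 (0.00493 to 0.0464).

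Hoxd9 was at 0.0965 and 0.207 CPM in lungs 3 and 4. It was at 2.71 to 8.07 CPM in nodes, with a median of 4.58, and at 0.465 to 3.52 CPM in HPN primaries, with a median of 2.26. The lungs overlapped with neither. The log2 difference from nodes was -4.90 ± 0.92 (SE; edgeR's quasi-likelihood test, adjusted p = 0.0195), and that from HPN primaries was -3.68 ± 0.86, which did not pass at an adjusted p of 0.125 in the same test (-3.22 and 0.358 without lung 3).

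Hoxd3 had 0 counts in lung 3 and 2 counts, 0.0689 CPM, in lung 4. Nodes had 0.640 to 3.39 CPM, with a median of 0.952, and HPN primaries had 0.127 to 2.16 CPM, with a median of 0.591. The lungs were again the lowest of the HPN libraries. The 2 lung counts stood against 286 in nodes, a ratio of 0.0264 in CPM (95% interval 0.00318 to 0.0963), and without lung 3 the ratio was 0.0547 (0.00659 to 0.199). The adjusted p against nodes was 0.0486 in edgeR's quasi-likelihood test. Hoxd10, a posterior gene of the limb, was at 0.0322 and 0.103 CPM in lungs 3 and 4, which are only 1 and 3 counts. It was at 0.144 to 1.09 CPM in nodes and at 0.174 to 0.523 CPM in HPN primaries. Node 8, the lowest node, had 5 counts, so the gap to the lungs is of few counts. Its lung values lay below both ranges, with a log2 difference from nodes of -2.72 ± 0.85 and an adjusted p of 0.0758 in the same test (-2.11 and 0.365 without lung 3).

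**Figure D2:**
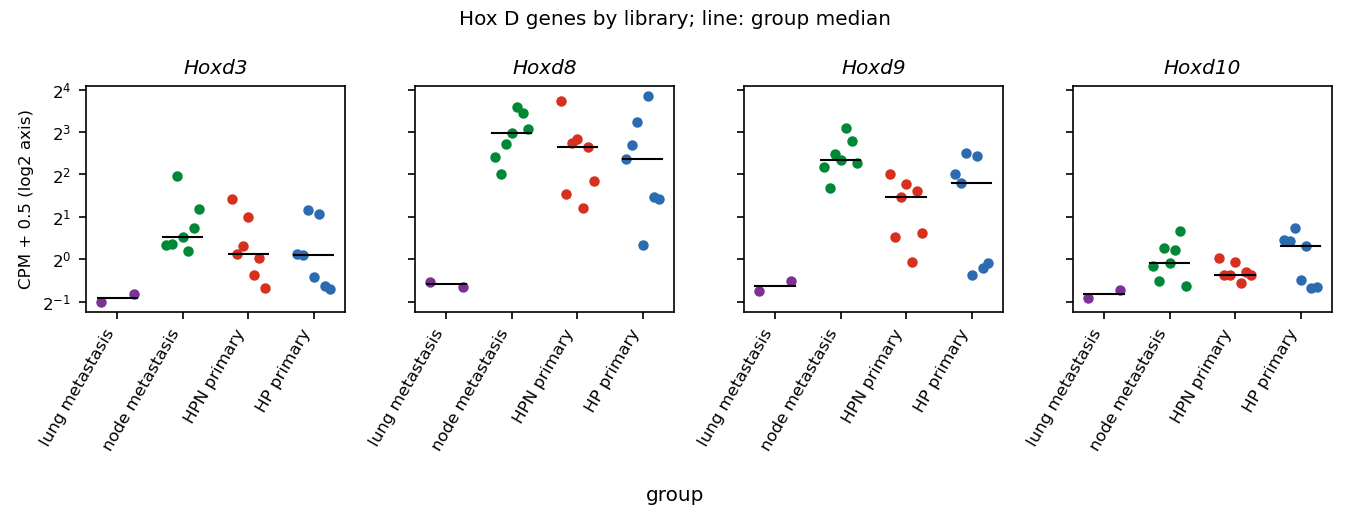
CPM + 0.5 (log2 axis) of Hoxd3, Hoxd8, Hoxd9 and Hoxd10 by group, with 1 point per library (2 lung metastases, 7 node metastases, 7 HPN primaries, 7 HP primaries) and a line at the group median. For Hoxd8 the lungs, at 0.193 and 0.138 CPM, lie below the lowest node at 3.53 CPM.

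In all, 3 of 28 Hox genes tested between lungs and nodes were called, all lower in lungs, where 5.04% of all 19152 genes tested were called. Between lungs and HPN primaries 1 of 28 was called, Hoxd8, where 0.266% of all genes were. The median log2 difference of the 28 was -2.72 between lungs and nodes, against 0.01 over all genes, and -2.53 between lungs and HPN primaries, against -0.06 over all genes. Without lung 3, 1 of 29 was called against nodes, Hoxd8, and 0 of 29 against HPN primaries (2 at an unadjusted p under 0.05), where 2.14% and 1.92% of all genes were called, and the medians were -2.11 and -1.77. The 28 include genes that passed the filter on low counts only through nodes or primaries. DESeq2 called 8 between lungs and nodes, where it called 12.5% of genes, adding Hoxa10, Hoxc6, Hoxc8, Hoxc9 and Hoxd10. Between lungs and HPN primaries DESeq2 called 4, Hoxc6, Hoxd3, Hoxd8 and Hoxd9, where it called 2.07% of genes. These additions were lower in lungs too.

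With only 2 lungs, the calls rest on few libraries. Without lung 3, Hoxd8 against nodes was at log2 -5.56 with an adjusted p of 0.0461 in edgeR's quasi-likelihood test. With the number as a replicate block, edgeR's quasi-likelihood test gave an adjusted p against nodes of 0.179 for Hoxd8, 0.194 for Hoxd9 and 0.246 for Hoxd3, and of 0.480 for Hoxd8 against HPN primaries, with log2 differences of -5.28, -5.14, -5.63 and -4.81. No gene of any kind was called between lungs and either group in that fit, which has 5 residual degrees of freedom, by edgeR (1134 and 2328 genes at an unadjusted p under 0.05 against HPN primaries and nodes; DESeq2 was not run with the block). With 1 lung left, that lung is assumed to vary like the other groups. Without lung 3 the adjusted p of Hoxd9 against nodes was 0.0947 and that of Hoxd3 0.253, and without lung 4 those of Hoxd8, Hoxd9 and Hoxd3 were 0.123, 0.123 and 0.142. The call of Hoxd8 against HPN primaries was lost without lung 3 (0.0613), lung 4 (0.863), node 8 (0.0525) or HPN primary 2 (0.0501), 3 (0.0648), 4 (0.0611) or 6 (0.0712). That of Hoxd3 against nodes was also lost without node 3 (0.0535), 5 (0.0650), 6 (0.0662), 7 (0.0720) or 8 (0.0830), or HPN primary 2 (0.0547), 3 (0.0649), 4 (0.0591), 5 (0.0507) or 6 (0.0619), and with DESeq2's size factors (0.0519). In each of these the log2 difference stayed below -4.

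Tissue markers differed between the same libraries. Lungs 3 and 4 had summed fibroblast markers of 545 and 1235 CPM, against 1204 to 3414 CPM in nodes and 1216 to 17670 CPM in HPN primaries. The fibroblast marker Mfap5 was at 0 counts in lung 3. Of the 12 fibroblast markers, 0 rose and 2 (Thy1 and Lum) fell between lungs and nodes, where 5.04% of all genes were called. Without lung 3 neither of these passed (edgeR adjusted p = 0.142 and 0.188). HP primary 5, with the lowest fibroblast sum of 277 CPM, had the lowest Hoxd8 of the primaries, 0.772 CPM. Node 5 and HPN primary 5, with fibroblast sums of 1204 and 1216 CPM beside the 1235 CPM of lung 4, had 6.11 and 1.82 CPM of Hoxd8 beside its 0.138 CPM. The part of fibroblast content in the cluster D result was not tested. Lung tissue content differed widely between lungs 3 and 4, at 4.86 and 7927 CPM of summed markers, and Hoxd8 was at 0.193 and 0.138 CPM in them. The part of lung tissue content was not tested.

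The lungs differed from each other in cluster A. Hoxa5, which mouse embryos need for normal lung development, was at 0.707 CPM in lung 3 and 9.20 CPM in lung 4. The HPN primaries spanned 0.0506 to 8.69 CPM and the nodes 1.01 to 5.23 CPM, so lung 4 lay above them all and lung 3 below every node. Tbx5, a T-box gene of lung, heart and forelimb, was at 0.804 and 16.8 CPM in lungs 3 and 4, beside the lung epithelium sums given above. Its log2 difference was 6.94 ± 1.35 (SE) from HPN primaries (adjusted p = 0.0495) and 5.57 ± 1.35 from nodes (adjusted p = 0.0366) in edgeR's quasi-likelihood test, and with the replicate block the adjusted p was 0.489 and 0.368. Without lung 4 the differences were 3.49 (0.863) and 2.09 (0.555), and without lung 3 they were 7.87 (0.00633) and 6.50 (0.0271). The call against HPN primaries was also lost without any of nodes 3 to 8 or of HPN primaries 1, 2, 3, 5, 6 and 7 (0.0646 to 0.122) and with DESeq2's size factors (0.0530), and that against nodes without any of nodes 3, 5, 6, 7 and 8 (0.0566 to 0.0708).

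Hoxb3 and Hoxb4, anterior genes of the hindbrain and neck that also act in blood stem cells, stood out in a few tumours with little other Hox expression. Together they made up 82.9% of the summed Hox CPM in lung 3, 75.2% in HPN primary 2, 73.4% in HP primary 5 and 51.2% in HP primary 9. In the other 19 libraries they made up 4.31 to 32.4%. Hoxb4 was at 10.7 and 4.10 CPM in lungs 3 and 4, at 3.09 to 9.94 CPM in nodes, at 0.177 to 15.8 CPM in HPN primaries and at 0.729 to 21.0 CPM in HP primaries. These groups overlapped. In the tumours with number 3, Hoxb4 was at 10.7 CPM in the lung metastasis, 8.29 CPM in the node metastasis and 8.86 CPM in the primary. Hoxd8 in the same 3 tumours was at 0.193, 4.84 and 6.14 CPM, so the libraries were close for one gene and apart for the other.

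**Figure D3:**
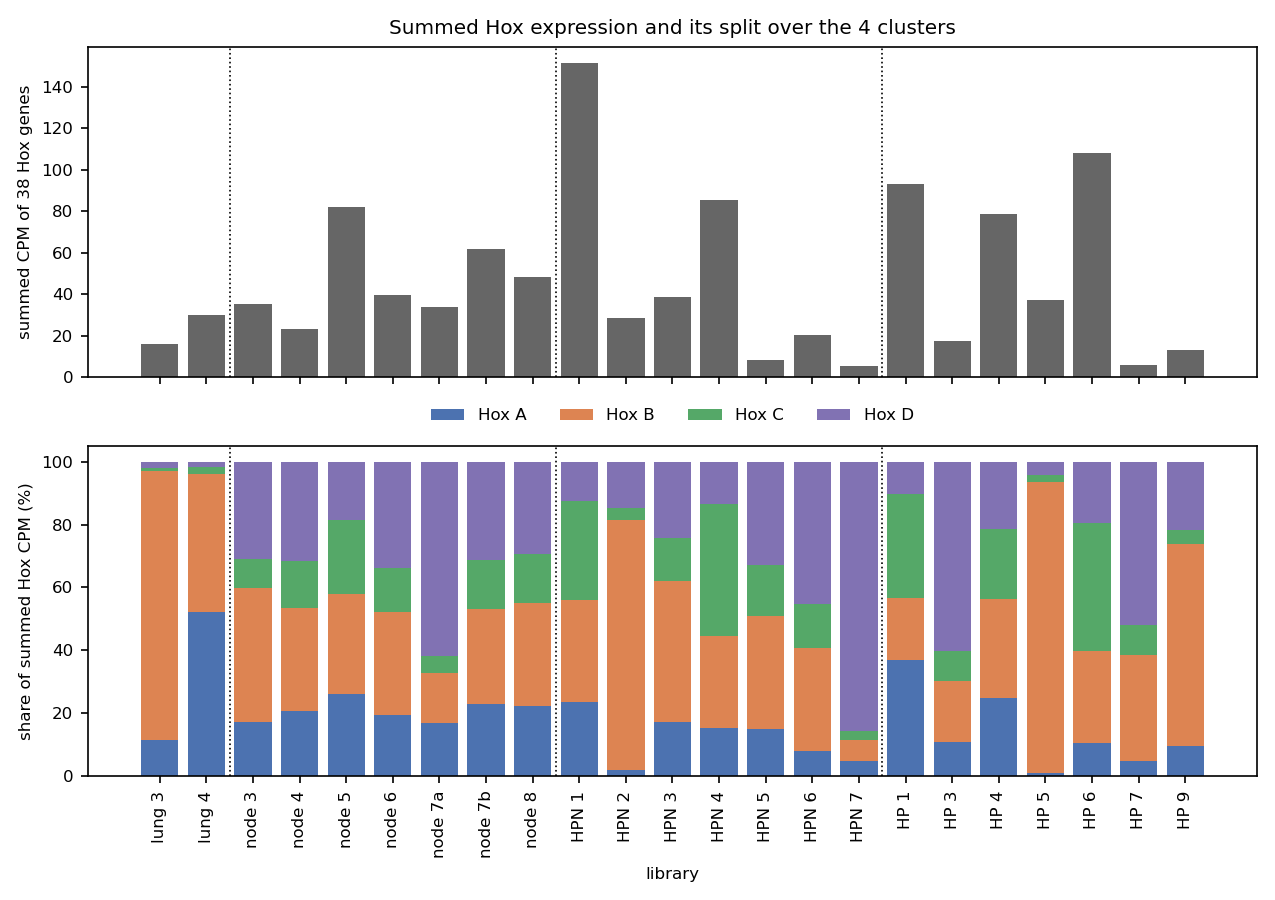
Upper bars give the summed CPM of the 38 Hox genes per library, lower bars the share of that sum in clusters A to D, not corrected for gene length, with dotted lines between lung metastases, node metastases, HPN primaries and HP primaries. Cluster D makes up 1.99% and 1.73% in lungs 3 and 4, and 85.6% in HPN primary 7.

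HPN primary 7 was the opposite case, with 85.6% of its 5.29 CPM of Hox expression in cluster D and 78.0% in Hoxd8 and Hoxd9. Node 7a, of the same number, had 58.0% in that pair and node 7b 27.4%. HP primaries 3 and 7 had 52.0% and 47.2%. Over the 38 genes, as log2(CPM + 0.5), the profile of node 3 correlated with that of HPN primary 3 at r = 0.902, the highest of its 7 primaries. The nodes 6 and 7a had their own number's primary in rank 2 (r = 0.885 and 0.823), node 5 in rank 3, node 4 in rank 5 and node 7b in rank 7 (r = 0.582). HPN primary 3 ranked first for 5 of the nodes with another number, 4, 5, 6, 7b and 8. The 38 genes share each library's depth and tissue, and most are near 0, so these r are descriptions only.

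Between nodes and HPN primaries 1 of 28 Hox genes tested was called, Hoxc13, where 22.5% of all 19152 genes were called. Of the 28, 17 had a positive and 11 a negative log2 difference, with a median of 0.14, against -0.08 over all genes. These directions depended on the libraries and the fit. With the replicate block 26 of 27 were positive, with a median of 1.33, without HPN primary 1 they were 23 of 27, with a median of 0.82, and without node 5 they were 11 of 28, with a median of -0.37. Hoxc13 is the most posterior gene of cluster C and is known for its part in hair shafts and nails. It was at 0 to 0.263 CPM in nodes, with a median of 0.0556, and at 0.0194 to 24.0 CPM in HPN primaries, with a median of 0.554. The ranges overlapped, and the high values were those of HPN primaries 4 and 1, at 24.0 and 22.7 CPM. The log2 difference was -6.53 ± 1.75 (SE; edgeR's quasi-likelihood test, adjusted p = 0.0169). With the replicate block it was -4.47 with an adjusted p of 0.0609, and with a term for libraries whose files count reads of low alignment quality it was -5.76 with 0.0749.

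Hoxc13 moved with hair follicle markers. The 4 primaries with the highest Hoxc13, HP 6, HPN 4, HPN 1 and HP 1, at 27.3, 24.0, 22.7 and 9.61 CPM, also had the 4 highest sums of 10 hair follicle markers, mostly hair keratins, at 3737, 6022, 3199 and 493 CPM. The nodes had sums of 0.0595 to 9.89 CPM and lungs 3 and 4 had 6.21 and 21.2 CPM. Node 5 had 0 counts for Hoxc13 and for 7 of the 10 markers. All 10 hair follicle markers, all 12 keratinocyte markers and all 10 skeletal muscle markers fell in nodes relative to HPN primaries in edgeR's quasi-likelihood test. That test called 22.5% of all genes in nodes. With the replicate block the 4 hair follicle markers of smallest p, Krt25, Tchh, Krt27 and Krt71, had edgeR adjusted p of 0.117 to 0.161. The part of skin content in the Hoxc13 result was not tested.

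**Figure D4:**
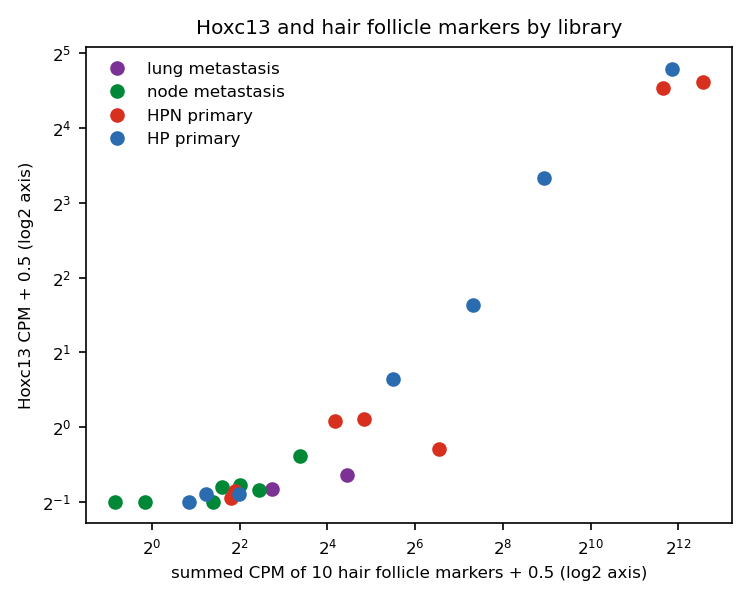
Hoxc13 CPM + 0.5 against the summed CPM + 0.5 of 10 hair follicle markers (both log2 axes), with 1 point per library of the lung metastases, node metastases, HPN primaries and HP primaries. The highest Hoxc13 points, 27.3, 24.0, 22.7 and 9.61 CPM, are the 4 libraries with the highest marker sums, while the nodes stay at or below 0.263 CPM.

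Hoxd9 leaned the other way in nodes, at 2.71 to 8.07 CPM, against 0.465 to 3.52 CPM in HPN primaries. The ranges overlapped between 2.71 and 3.52 CPM, and the log2 difference of 1.22 ± 0.45 (SE) had an adjusted p of 0.0623 in edgeR's quasi-likelihood test. That p was 0.0348 without HPN primary 1, 0.0460 without node 4, 0.0308 with nodes 7a and 7b kept apart and 0.0263 by DESeq2, but 0.151 with the replicate block. Hoxd11, a posterior gene of the forearm, was too low for the filter. It had 22, 4, 0, 3, 0, 3 and 6 counts in nodes 3, 4, 5, 6, 7a, 7b and 8, and 1 count in all 7 HPN primaries together. The highest node, 3, had 0.807 CPM, and nodes 5 and 7a overlapped with the primaries at 0. The pooled ratio was 40.6 (95% interval 6.87 to 1647, counting error only), and without node 3 it was 19.4 (3.02 to 816). DESeq2 called Hoxd11 (log2 4.79, adjusted p = 0.00861), as did edgeR's quasi-likelihood test without the filter (log2 4.70, adjusted p = 0.0109). DESeq2 called 3 Hox genes in nodes, Hoxc13, Hoxd9 and Hoxd11, where it called 26.2% of genes.

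The inguinal node 7b and the cervical node 7a carry the same number and differed in many genes of clusters A to C, posterior ones among them. Hoxa10 had 48 counts in node 7b and 0 in node 7a, at least 14.9-fold higher, and Hoxc10 had 49 and 0, at least 15.2-fold higher, against a floor of 3 counts per library. Both are paralogs of the lower back and hind limb. Genes next to them, chosen after their values were seen, went the same way. Hoxa9, Hoxb9 and Hoxc9 had 31, 15 and 43 counts in node 7b and 0 in node 7a, at least 9.64-, 4.66- and 13.4-fold higher. Hoxc8 had 111 counts in node 7b and 4 in node 7a, a ratio of 25.9 in CPM (95% interval 9.83 to 96.7), and Hoxc6 had 96 and 12, a ratio of 7.46 (4.08 to 14.9). In cluster B, Hoxb6 had 57 and 3 counts, a ratio of 17.7 (5.77 to 88.5), but Hoxb13 went the other way, with 0 and 4. In cluster D, Hoxd8 and Hoxd9 differed little between the pair. Hoxd8 had 403 counts in node 7b and 413 in node 7a, a ratio of 0.910 (0.792 to 1.05), and Hoxd9 had 247 and 290, a ratio of 0.795 (0.668 to 0.945). Hoxd3 had 45 and 23 counts, a ratio of 1.83 (1.08 to 3.16), and Hoxd10 had 42 and 24, a ratio of 1.63 (0.966 to 2.82). These intervals cover counting error in 1 library each and do not test the sites.

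The other cervical node, 6, shared with node 7a the 0 counts of Hoxc10, but had 16 counts of Hoxa9 and 21 of Hoxa10. Hoxc10 was above 1 CPM in nodes 7b and 5 only, at 1.27 and 1.23 CPM, where node 5 has no named site. The brachial nodes 3, 4 and 8 had 0, 1 and 1 counts of Hoxc10. Summed fibroblast markers were at 2977 CPM in node 7b, at 1741 to 2807 CPM in the cervical nodes, at 1966 to 3414 CPM in the brachial nodes and at 1204 CPM in node 5. Node 8, with the highest of these sums, had 0.0289 CPM of Hoxc10, and node 5, with the lowest, had 1.23 CPM. The part of fibroblast content in the differences between nodes was not tested.

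**Figure D5:**
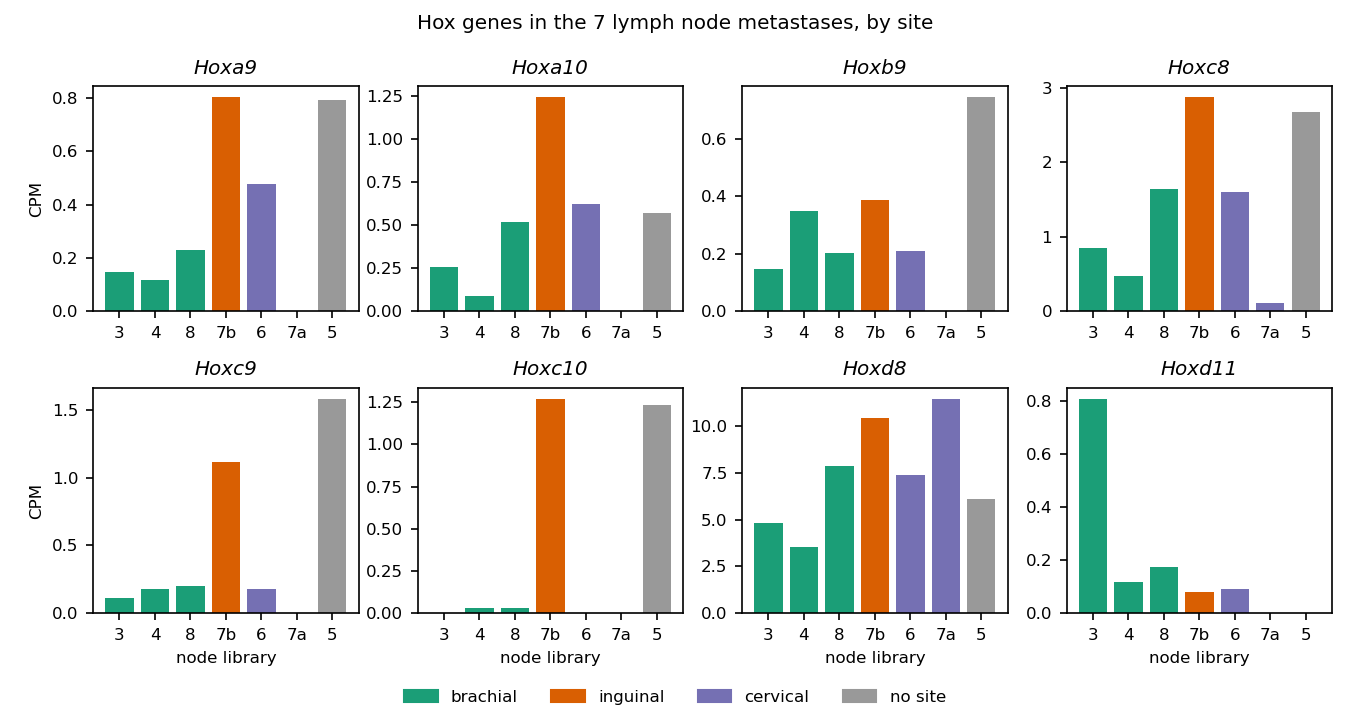
CPM of 8 Hox genes in the 7 node metastases, 1 bar per library, coloured by labelled site (brachial 3, 4 and 8, inguinal 7b, cervical 6 and 7a, no named site 5). Hoxc10 is at 1.27 CPM in node 7b and 1.23 CPM in node 5, and at or near 0 in the other 5.

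Between brachial and cervical nodes, 0 of 27 Hox genes tested were called by edgeR's quasi-likelihood test, where 0% of all 18875 genes were called and 804 had an unadjusted p under 0.05, 0 of them Hox genes. DESeq2 also called 0 Hox genes, and 0.225% of all genes. The median log2 difference of the 27 was 0.29 and moved with single nodes, to 0.52 without brachial node 4 and to -0.03 without brachial node 8. Without node 6 it was 1.16, with 9 of 27 at an unadjusted p under 0.05 and 0 called by edgeR, and without node 7a it was -0.19. With 1 cervical node left, that node is assumed to vary like the brachial ones. Among the smallest p were those of Hoxd11 and Hoxd9, with log2 differences of 2.97 ± 1.51 and -0.74 ± 0.41 (SE) and an adjusted p of 0.780 each in edgeR's quasi-likelihood test. Hoxd11 was at 0.807, 0.117 and 0.173 CPM in brachial nodes 3, 4 and 8, and at 0.0892 and 0 CPM in cervical nodes 6 and 7a. Hoxd9 was at 4.04, 2.71 and 4.33 CPM in the brachial and at 4.58 and 8.07 CPM in the cervical nodes. For both genes the sites did not overlap, but 3 against 2 libraries leaves the spread poorly known. For Hoxd11 the gap rests on 4 counts in brachial node 4 against 3 counts in cervical node 6.

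Between the genotypes 0 of 17 Hox genes tested were called by edgeR's quasi-likelihood test, where 0% of all 16578 genes were called and 477 had an unadjusted p under 0.05, 0 of them Hox genes. DESeq2 also called 0 of all genes, 0%. The median log2 difference of the 17 was -0.04, with 8 positive, against -0.05 over all genes. It moved with single tumours, to -0.79 without HPN primary 1 (0 of 19 positive) and to 0.51 without HP primary 6 (12 of 16 positive). With the term for low-quality reads it was -0.81 (1 of 17 positive). The smallest p were those of Hoxd10, Hoxb9 and Hoxd9, with log2 differences of -0.89 ± 0.53, -1.09 ± 1.17 and -0.42 ± 0.71 (SE) and adjusted p of 0.951, 0.951 and 0.952 in edgeR's quasi-likelihood test. Hoxd10 was at 0.174 to 0.523 CPM in HPN primaries, with a median of 0.278, and at 0.130 to 1.17 CPM in HP primaries, with a median of 0.749. Hoxb9, a gene of the thorax, was at 0 to 1.57 CPM in HPN primaries, with a median of 0.252, and at 0 to 3.41 CPM in HP primaries, with a median of 0.273. Both pairs of ranges overlapped. Hoxa7 and Hoxc6, genes of the thorax and the middle of their clusters, were at 0.0759 to 11.9 and 0.0506 to 8.48 CPM in HPN primaries, and at 0.104 to 10.2 and 0.120 to 5.84 CPM in HP primaries, so single tumours of 1 genotype differed far more than the genotypes did.

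One tumour carried a posterior code in clusters A and C. HP primary 1 had Hoxa10 at 1.80 CPM, Hoxa11 at 1.61, Hoxa13 at 1.10, Hoxc10 at 3.34 and Hoxc11 at 4.04 CPM. Hoxa11 and Hoxa13, genes of the distal limb and the urogenital tract, had no other library above 0.0698 CPM. Hoxa11, with 44 counts in HP primary 1, had 0 counts in the other 22 libraries. Hoxc11 reached at most 0.0780 CPM in any other library. The posterior genes of cluster D did not stand out in HP primary 1. There Hoxd11, Hoxd12 and Hoxd13 had 0 counts, and Hoxd10, at 0.880 CPM, was below the 1.17 CPM of HP primary 4. Hoxa9, chosen after its value was seen, was at 12.3 CPM in HP primary 1, against at most 0.805 CPM elsewhere. Hotair, a noncoding RNA of the posterior C cluster, had 33 counts in HP primary 1 and 0 in the other 22 libraries, and Hottip, of the posterior A cluster, had 2 and 0. The Hox genes of clusters A and C named here for this tumour were too low in the other primaries to pass the filter of the test between genotypes.

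The primaries with the highest summed Hox expression also had high skin markers. HPN primary 1, HP primary 6, HP primary 1 and HPN primary 4, with 152, 108, 93.4 and 85.6 CPM of Hox genes, had summed keratinocyte markers of 7112, 15749, 10550 and 2776 CPM. HPN primary 7, HP primary 7 and HPN primary 5, with 5.29, 5.62 and 8.34 CPM, had 62.4, 11.1 and 7.02 CPM. The order did not hold throughout. HP primary 3, with 6680 CPM of keratinocyte markers, had 17.2 CPM of Hox genes, below HP primary 5 and HPN primary 2, which had 37.0 and 28.4 CPM of Hox genes beside 30.8 and 63.0 CPM of markers. The part of skin content in these levels was not tested.

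Proteins that work with or on Hox genes were followed by 3 lists. Of 11 genes for TALE homeodomain cofactors (Pbx, Meis, Pknox and Tgif families), which bind DNA beside Hox proteins, 0 were called in any of the 5 comparisons by edgeR. Of all genes it called 22.5% in nodes, 5.04% between lungs and nodes and 0.266% between lungs and HPN primaries. Between sites and between genotypes it called 0% of all genes. Of 26 Polycomb genes, which keep silent Hox genes off, 3 rose and 2 fell in nodes relative to HPN primaries, beside 22.5% of all genes called there. Cbx7, a reader of the Polycomb mark, rose by log2 1.68 ± 0.25 (SE; edgeR adjusted p = 5.22e-04), also with the replicate block (1.58, 0.0200). Eed rose by 0.47, Pcgf2 fell by 0.93 and Cbx2 fell by 0.82, none of these 3 past the threshold with the block (edgeR adjusted p = 0.172, 0.0851 and 0.208). The call of Eed was lost without any of HPN primaries 1 to 6 or nodes 5 to 8 (0.0569 to 0.0952), with no filter (0.0546) and with the term for low-quality reads (0.0680). That of Cbx2 was lost without any of HPN primaries 1, 2, 4 and 5 or nodes 3, 5, 6, 7 and 8 (0.0547 to 0.113), with DESeq2's size factors (0.0514), with no filter (0.0733) and with that term (0.0830), and that of Pcgf2 without node 5 (0.0516). In lungs relative to nodes Cbx7 fell by 1.91 and Pcgf3 rose by 0.77, with 0.224 and 0.373 in the block. Without lung 3 these were 0.133 and 0.286, and without lung 4 they were 0.148 and 0.158. The call of Cbx7 was also lost without node 7 (0.0511) or 8 (0.0547), and that of Pcgf3 without any of HPN primaries 2, 4, 5 and 6 or nodes 3, 5, 6, 7 and 8 (0.0551 to 0.0970), with DESeq2's size factors (0.0563) and with no filter (0.0768). Of 14 genes of the Trithorax group and its relatives, which keep Hox genes on, 2 rose and 1 fell in nodes, beside the same 22.5%. Kmt2a and Kmt2c rose by 0.77 and 0.67 in nodes and the demethylase Kdm6b fell by 0.57, with adjusted p of 0.0618, 0.0702 and 0.0861 in edgeR's block fit. B and T cell markers rose in the same nodes, 9 of 9 and 9 of 10, and their part in these changes was not tested.

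Retinoic acid switches on anterior Hox genes and Cdx factors switch on posterior ones. Of 15 tested genes of that list, 1 rose and 4 fell in nodes, where 22.5% of all genes were called. Crabp1 and Crabp2, retinoic acid binding proteins, fell by 6.29 each on the log2 scale, and the receptor Rarg fell by 1.04. Keratinocyte and hair follicle markers fell in the same nodes, and the part of skin content in these changes was not tested. The synthesis enzyme Aldh1a2 rose by 3.85 in nodes and by 5.66 in lungs relative to HPN primaries. Aldh1a1, an enzyme of the same step, rose by 4.96 in lungs relative to nodes. The lung values rest on lung 4, without which they were 1.59 for Aldh1a2 (edgeR adjusted p = 0.867) and 1.18 for Aldh1a1 (0.709). Without lung 3 they were 6.61 (0.00344) and 5.90 (0.0144). The lung call of Aldh1a2 was also lost without any of HPN primaries 1 to 7 or nodes 3 to 7 (0.0531 to 0.129) and with DESeq2's size factors (0.0530), and that of Aldh1a1 without node 6, 7 or 8 (0.0604 to 0.0654). With the replicate block only Crabp1 (edgeR adjusted p = 0.0338) and Rarg (0.0119) of these passed. Cdx2 and Cdx4 had 0 counts in all groups.

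Of 21 tested positional transcription factors outside the Hox clusters, 0 rose and 6 fell in nodes, where 22.5% of all genes were called, with log2 differences of -5.65 for Zic1, -6.34 for Barx2, -8.34 for Dlx3 and -5.07 for the hind limb gene Pitx1. With the block Dlx3 (edgeR adjusted p = 0.0179) and Pitx1 (0.0389) passed, and Zic1 (0.119) and Barx2 (0.0856) did not. Zic1 acts in neural and muscle precursors, and Barx2 and Dlx3 in epidermis and hair, whose markers fell in the same nodes as given above. Barx2 also missed the threshold with the term for low-quality reads (0.0508). Of the noncoding RNAs of the clusters, 5 of 12 were tested. Hoxb5os fell by 4.16 in nodes (edgeR adjusted p = 0.0426), a call lost without any of nodes 4 to 8 or lungs 3 and 4 (0.0503 to 0.0923), with no filter (0.0515) and with the term for low-quality reads (0.102). Hoxd3os1, antisense to both Hoxd3 and Hoxd8, had 0 counts in both lungs and 0.0875 to 1.04 CPM in nodes (edgeR adjusted p = 0.0484, and 0.301 with the block). That call was lost without lung 3 (0.219) or 4 (0.204), and without any of HPN primaries 2, 3, 4 and 6 or nodes 3, 5, 6, 7 and 8 (0.0502 to 0.0816), with DESeq2's size factors (0.0518) and with no filter (0.0501). Reads of an antisense pair cannot be told apart here since the strand setting of the counting is not stated. The same limit holds for Hoxa3 with Hoxa4 to Hoxa6 and for Hoxc5 with Hoxc6 to Hoxc10, which overlap on 1 strand in the annotation. Hoxd3 overlaps Hoxd4 in the same way. Hoxd4 was not among the identifiers counted, so its reads cannot be told from those of Hoxd3.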

How the data were processed

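Total RNA was made into directional libraries, per the labels' protocols. The submitters' processing notes name bcl2fastq 1.8.4, STAR 2.5.3a and the build mm9. The deposited values are raw counts per Ensembl gene, with summary lines named as by HTSeq. For the counting, version, strand setting and annotation were not given in the sources used here. Summary lines were left out of library sizes and tests, and their line for reads of low alignment quality is above 0 in 8 libraries and at 0 in the other 15. Symbols came by identifier from GENCODE vM21, which matched 87.4% of identifiers.

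Members, gene lists and tests were chosen with earlier results of these data known. Named genes are those called, the 3 smallest p where none was called, the 2 highest mean CPM per cluster, genes of paralogs 10 to 13 reaching 1 CPM, and up to 4 called members of the other lists; other genes named were chosen after their values were seen. The values of 1 member are not reported here.

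Fits covered the 14 primaries, the 15 HPN samples (nodes 7a and 7b summed) and the 7 nodes by site, with edgeR 4.0.16 in R 4.3.3: filterByExpr, TMM, robust glmQLFit, glmQLFTest, Benjamini-Hochberg over all genes tested, threshold 0.05. Alternatives were DESeq2 1.42.0, its size factors, no filter, a term for low-quality reads, a replicate block, nodes 7a and 7b apart, all 23 libraries for the site test, and each library left out. Pairing of nodes with HPN primaries was taken from the title numbers; same-numbered samples deviated from their group means with r of 0.252, -0.101, -0.162, 0.418 and 0.0699 for numbers 3 to 7. The fits between genotypes, of nodes against HPN primaries and between sites were tested on simulated data, and the lung contrasts were not. Simulated log2 changes of 3 were recovered in 84%, 85% and 73% of changed genes in that order. Changes of 1 were recovered in 19%, 31% and 0%, so small differences, and some large ones, could be missed. Changed genes were drawn from all genes above a low mean level, so these rates are not those of the Hox genes. The node simulation used node 7a without 7b and held no lungs. Ratios of counts have exact 95% intervals (scipy 1.17.1).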

Additional observations from a re-analysis of the deposited data

Results flagged for a closer look

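In 50 groups of Hox values by gene and group, 10 had a highest library far from the nearest other. Chance gives about 1 in 20 groups of evenly spread values, a rate that does not hold where every other library of the group is at 0, as in 5 of the 10. HP primary 1 was that library for Hoxa10 (1.80 CPM), Hoxa11 (1.61), Hoxa13 (1.10), Hoxc10 (3.34) and Hoxc11 (4.04). HPN primary 1 was it for Hoxa13 and Hoxc11 at 0.0698 CPM each and for Hoxd11 at 0.0349 CPM, which are 2, 2 and 1 counts. Node 4 was it for Hoxc13 at 0.263 CPM, and node 3 for Hoxd11 at 0.807 CPM.

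For 3 of 28 Hox genes tested, lungs differed from nodes in edgeR's quasi-likelihood test, where 5.04% of all genes were called. The fitted log2 differences were -5.24 for Hoxd3 (on 2 lung counts), -5.32 for Hoxd8 and -4.90 for Hoxd9. With the replicate block the same test called none of them (adjusted p = 0.246, 0.179 and 0.194 in that order). Against HPN primaries only Hoxd8 passed. Metastatic site and tissue content cannot be told apart in these libraries.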

How the results depend on the processing

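The log2 differences printed for Hoxd3, Hoxd8, Hoxd9, Hoxd10 and Hoxd11, for Hoxc13 in nodes and for Hoxb9 between genotypes kept their direction under the alternatives run. Of all Hox genes tested, 14 of 17 between genotypes, 15 of 28 in nodes, 9 and 10 of 28 in lungs against HPN primaries and nodes, and 15 of 27 between sites changed direction in at least 1 alternative. Hoxb3 in nodes, for example, was at -0.52 and with the replicate block at 1.03. Hox genes called in nodes numbered 1, and 2 with no filter, 3 with DESeq2, 0 with the term for low-quality reads, 2 with nodes 7a and 7b apart and 1 to 3 with a library left out. In lungs relative to HPN primaries 1 was called, 4 with DESeq2 and 0 to 1 with a library left out. Between lungs and nodes 3 were called, 8 with DESeq2 and 0 to 4 with a library left out. With the replicate block, 0 Hox genes were called in each of these 3 comparisons (3, 6 and 9 at an unadjusted p under 0.05), and the median node difference was 1.33 instead of 0.14.

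Of all genes, 4313 were called in nodes, 1307 with the replicate block and 2731 to 5333 with a library left out. In lungs against HPN primaries 51 were called, 138 with no filter, 434 with DESeq2, 0 with the replicate block and 0 to 393 with a library left out. Between lungs and nodes 966 were called, 2556 with DESeq2, 0 with the replicate block and 0 to 2017 with a library left out. Brachial against cervical nodes gave 0, 42 with DESeq2, and 0 with any library left out. The genotype contrast gave 0 throughout, with the replicate block too, where same numbers mark different animals. The cause of these shifts was not tested. The low-quality term was not run for the lung contrasts, since neither lung file counts such reads. A gene with 0 counts could lie at up to 0.0324 to 0.138 CPM, depending on the library, by counting error only. The SE between genotypes was 0.53 to 1.67 on the log2 scale over the 17 Hox genes tested, and 0.85 for Hoxb4 on 1324 counts in HPN and 2116 in HP primaries.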
